A study of Mus musculus with 22 samples.

Results

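Mouse embryonic stem (ES) cells that carry a single Dux repeat unit were compared with wild-type cells after both had received GSK-3484862, a compound that degrades DNMT1, the enzyme that maintains DNA methylation. Members were chosen by title: 2 libraries of line N22 with GSK-3484862 and 2 wild-type (WT) libraries with GSK-3484862, out of 22 libraries in the series. N22 is a CRISPR-Cas9 edited line labelled Dux (n=1), read here as 1 clone, so genotype and clone cannot be told apart. WT cells keep the duplicated Dux cluster. GSK-3484862 was given for 3 days, at 1 uM by the treatment protocol and 2 uM by the series design, a difference that the labels do not settle. The same lines with the solvent DMSO for 3 days (2 libraries each) and KO22, a line labelled Dux-KO with GSK-3484862 (2 libraries), served as comparison groups. All cells grew in serum with LIF. Nothing in the labels ties the replicates to separate cultures, so the p-values rest on library-to-library spread alone, and that spread may be technical.

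Dux is a homeobox transcription factor expressed briefly at the 2-cell stage of the mouse embryo, where it switches on the Zscan4, Usp17-like, Tcstv and Eif1a-like gene families. A small fraction of cultured ES cells enters a similar state, called 2-cell-like. Loss of DNA methylation is known to raise the number of such cells, and to reactivate imprinted and germline genes.

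Total counts were between 16759053 and 18422898 in the 4 libraries, and 16641 genes were tested. The 6 defining ES cell markers summed to 3400 and 3364 CPM (counts scaled to a common library size) in WT and 3530 and 3462 CPM in N22. The 8 fibroblast markers summed to between 23.8 and 30.2 CPM, most of it Thy1, and the 6 trophoblast markers to between 2.63 and 4.24 CPM. ES cell markers were thus high in all 4 libraries, and those of the other cell types low.

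The Zscan4 genes come first because every measured member was lower in N22. Their promoters share a near-identical stretch, shown here for the letters these genes have in common. Windows of 60 bases upstream of the gene start come from RefSeq (GRCm38.p6, strand of the gene, 5′ to 3′), and capitals mark a match to TGATTNNATCA on either strand.
Zscan4b: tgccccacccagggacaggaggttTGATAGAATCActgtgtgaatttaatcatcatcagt
Zscan4c: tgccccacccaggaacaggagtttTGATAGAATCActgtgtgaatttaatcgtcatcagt
Zscan4d: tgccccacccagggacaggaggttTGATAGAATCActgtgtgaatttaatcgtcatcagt
Zscan4f: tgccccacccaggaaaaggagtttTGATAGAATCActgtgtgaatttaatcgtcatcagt
The windows lie at chr7:10905106-10905165 (minus strand) for Zscan4b, chr7:11005607-11005666 (plus) for Zscan4c, chr7:11166238-11166297 (minus) for Zscan4d and chr7:11397800-11397859 (plus) for Zscan4f. The match was present in 4 of 4 Zscan4 promoters in the table, in 4 of 41 promoters of the 2-cell list (these same 4), and in 0.177% of 32851 promoters over the 250 bases upstream. The motif was chosen after other motifs had been tried, and a match describes letters only.

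N22 held fewer Zscan4 transcripts than WT under the degrader, and far more than KO22. The 5 measured Zscan4 genes summed to 59.8 and 56.3 CPM in WT and to 24.1 and 22.1 CPM in N22, a ratio of 0.398. The groups did not overlap, and KO22 held 0 and 0.0523 CPM. Fewer 2-cell-like cells and less RNA per such cell cannot be told apart in bulk samples. Zscan4c, the member best known as a marker of the state, read 15.3 and 15.6 CPM in WT against 7.42 and 4.83 CPM in N22. Its log2 difference was -1.34 ± 0.19 (SE, edgeR quasi-likelihood test, adjusted p = 2.1e-07). Zscan4d read 21.1 and 21.1 CPM against 7.53 and 9.87 CPM (log2 difference -1.27 ± 0.18, adjusted p = 3.5e-06). All 5 members fell, with log2 differences from -1.75 for Zscan4b to -1.27 for Zscan4d, although the Zscan4b call was lost without N22 replicate 2 or WT replicate 1.

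**Figure D1:**
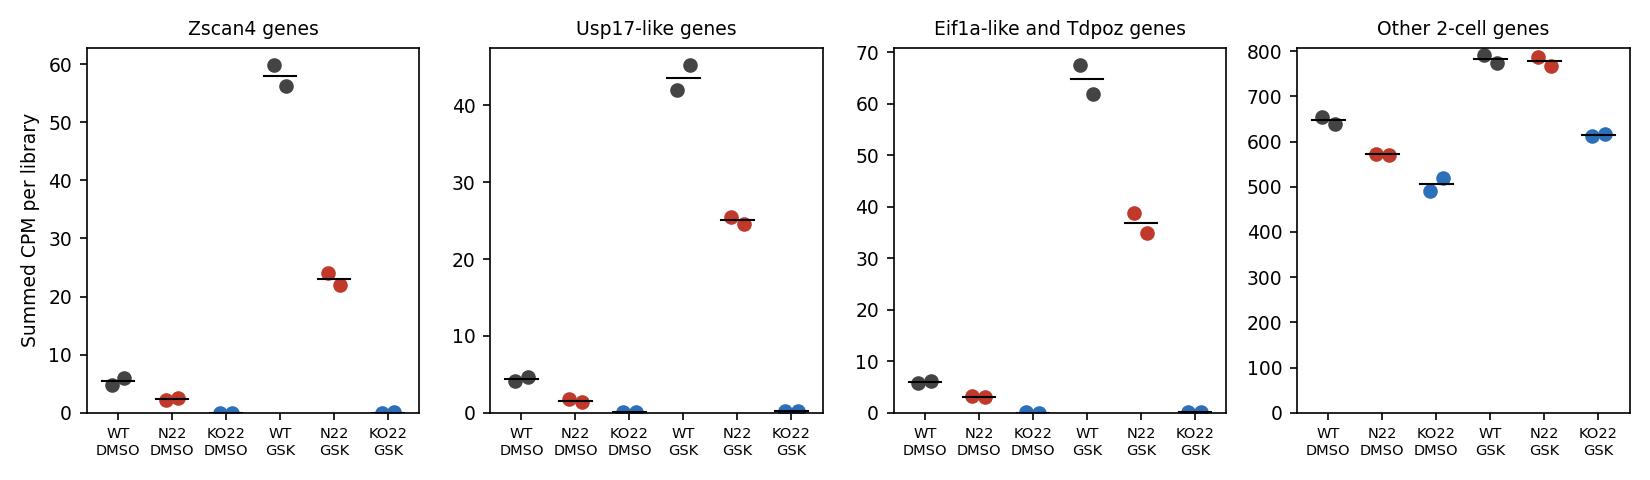
Summed CPM of 4 groups of 2-cell genes in each of 12 treated libraries (points) with the group mean (bar); WT in grey, N22 in red, KO22 in blue. Under GSK the 2 N22 libraries lie between WT and KO22 for the Zscan4 genes (24.1 and 22.1 against 59.8 and 56.3 CPM), while the other 2-cell genes overlap between N22 and WT.

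Duxf3, the Dux gene itself, was measured at 19 and 18 counts in WT and at 13 and 11 counts in N22. Its log2 difference of -0.54 ± 0.58 did not pass the test (adjusted p = 0.66), and a difference of this size was not detectable at this depth. KO22 had 0 counts of Duxf3 in both libraries. The other 4 Dux-family models in the files, Gm4981 among them, were left out by the filter on low counts. Reads from the repeated Dux units may be lost or assigned to 1 copy, so these counts cannot give a copy number.

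Of 75 2-cell genes in the files, 55 passed the filter on low counts, 24 fell and 4 rose in N22. Over all genes tested, 9.65% passed at an adjusted p below 0.05, 5.05% higher and 4.6% lower. The median log2 difference was -0.93 for the 55 genes and -0.00 for all genes. Several members are near 0 in the other groups and passed the filter through WT GSK, where they are high, so this count and median describe the list and support nothing further. By family, 4 of 5 Usp17-like genes (deubiquitinases) fell, 3 of 9 Tcstv and Pramel-like genes fell, and 7 of 10 Eif1a-like and Tdpoz genes fell. These multi-copy families share reads, so their members are not separate measurements. DESeq2 called 12 members, 10 of them lower, and gave 30 of the 55 no adjusted p. Without 1 library, between 12 and 20 members were called, the fewest without the N22 replicate 2 library. The summed level of the whole list was 982 and 956 CPM in WT and 884 and 856 CPM in N22, a ratio of 0.898. Genes listed outside these families, broadly expressed ones among them, carried most of that sum, at 792 and 774 CPM in WT and 788 and 768 CPM in N22.

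Usp17le read 16.8 and 18.2 CPM in WT and 9.89 and 9.87 CPM in N22 (log2 difference -0.83 ± 0.16, adjusted p = 0.00015). Tcstv3 read 1.83 and 2.43 CPM in WT and 0.353 and 0.429 CPM in N22 (log2 difference -2.42 ± 0.55, adjusted p = 0.0014), a low level at which the call was lost without the WT replicate 2 library. Among the genes listed outside the families, Gm21761 read 29.3 and 30.2 CPM against 17.1 and 14.2 CPM, and Gm20767 fell by 1.43 on the log2 scale. Both lie near Tcstv3 on chromosome 13, and whether they share reads with that family was not tested. Zfp352, a 2-cell zinc finger gene, read 2.47 and 2.28 CPM against 0.942 and 1.29 CPM without passing the test (adjusted p = 0.12). Tmem92 likewise missed it, at 3.71 and 2.81 CPM against 1.59 and 0.59 CPM (adjusted p = 0.068).

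Of the 55 tested, 14 had at least 20 summed counts in the 2 KO22 GSK libraries, a threshold chosen after the values were seen. Among these 14, 2 fell (P4ha2 and Slc38a4), and all 4 members that rose were found here. They were Fbxo15, an F-box gene also active in undifferentiated ES cells (164 and 153 CPM in WT, 200.5 and 188 in N22, log2 difference 0.30 ± 0.05, adjusted p = 1.7e-06), Ddit4l, Trim43b and Zfp365. Ddit4l read 23.5 and 20.7 CPM in WT, 27.7 and 29.9 CPM in N22 and 19.3 and 20.6 CPM in KO22. Its call was lost with DESeq2 (adjusted p = 0.077), without N22 replicate 2 (edgeR adjusted p = 0.17) and without WT replicate 2 (0.23). Trim43b read 2.63 and 2.81 CPM against 5 and 4.94 CPM, and lost its call whenever any 1 of the 4 libraries was left out.

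The gap between N22 and WT in the Zscan4 genes was also present with DMSO. Summed Zscan4 transcripts were 4.81 and 6.04 CPM in WT and 2.12 and 2.52 CPM in N22 with DMSO, a ratio of 0.428 against 0.398 with GSK. WT rose 10.7-fold and N22 9.95-fold from DMSO to GSK. The other families were not all alike. For the summed Usp17-like genes the ratio of N22 to WT was 0.356 with DMSO and 0.574 with GSK. It was 0.530 and 0.569 for the Eif1a-like and Tdpoz genes. For the Tcstv and Pramel-like genes it was 0.162 and 0.377, but N22 with DMSO held only 0.223 and 0.376 CPM of these. Of the 55 members, 2 passed the test of the clone-by-treatment difference, where 11.1% of all genes did: Gm21761 (1.64) and Fbxo15 (0.21).

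Across all 16641 genes tested, the 2-cell list included, 841 were higher and 765 lower in N22 under the degrader, and most differences were small. Only 35 of the higher and 58 of the lower genes reached 2-fold. Leaving out any 1 of the 4 libraries left between 884 and 972 calls, and DESeq2 made 916. With DMSO, 4221 genes (25.4%) differed between the same lines, 403 of them by 2-fold. With GSK, 93 genes reached 2-fold, with a median absolute log2 difference of 1.40, and 0.85 with DMSO. The 403 genes had a median absolute log2 difference of 1.45 with DMSO and 0.41 with GSK. Each set was chosen for passing 2-fold in 1 treatment, which fixes a median above 1 there. A smaller median in the other treatment can follow from that choice alone, so these medians do not measure an effect of treatment. The 2 treatments share no library, and 851 genes passed in both, which is 53% of the GSK calls and 20.2% of the DMSO calls. Of these, 696 had the same direction. Against KO22 under GSK, N22 differed in 4087 genes (24.6%), a comparison that uses the same N22 libraries.

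**Figure D2:**
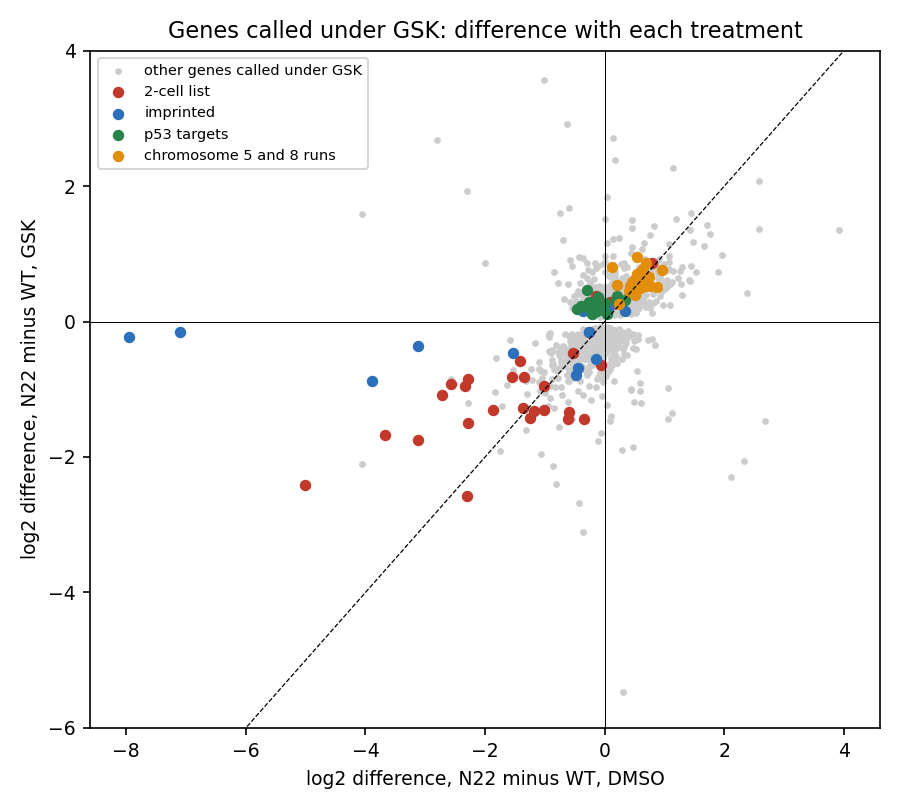
Log2 difference N22 minus WT with DMSO (x) and with GSK (y) for the 1606 genes called under GSK; the dashed line marks equal differences, and 4 gene groups are coloured. Meg3 and Rian lie far to the left near 0 on the y axis, and the genes of the chromosome 5 and 8 runs lie above 0 on both axes with few exceptions.

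Target genes of p53, the stress-responsive transcription factor, rose together. Of 25 tested targets, 16 rose (background 5.05% higher), and the median log2 difference was 0.18. Trp53inp1, which promotes p53 activity, read 360 and 325 CPM in WT and 446 and 431 CPM in N22 (log2 difference 0.36 ± 0.04, adjusted p = 2.9e-09). Ccng1 (cyclin G1) read 332 and 305 CPM against 390 and 381 CPM (0.28 ± 0.04, adjusted p = 3.6e-06). Sesn2, a stress-induced metabolic regulator, rose by 0.30 and Phlda3 by 0.29. Trp53 itself read 549 and 553 CPM against 609 and 607 CPM (0.14 ± 0.03, adjusted p = 0.001). In every one of these genes both N22 libraries lay above both WT libraries. They were named for the smallest p among called list members, so this order was close to fixed by the choice.

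The same targets leaned the other way with DMSO, where 12 of 25 were lower and 2 higher (background 13.9% lower and 11.5% higher). With RLE factors it was 11 lower and 2 higher, and with DESeq2 10 and 2. The clone-by-treatment difference passed for 17 of 25, all higher under GSK (background 5.82% higher), with a median of 0.38, and 17 with RLE factors and 15 with DESeq2. It was 0.56 for Phlda3, 0.47 for Trp53inp1 and 0.27 for Ccng1. Trp53 itself was higher in N22 with DMSO too (0.21 ± 0.03, edgeR adjusted p = 3.2e-07). Its clone-by-treatment difference of -0.07 did not pass.

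**Figure D3:**
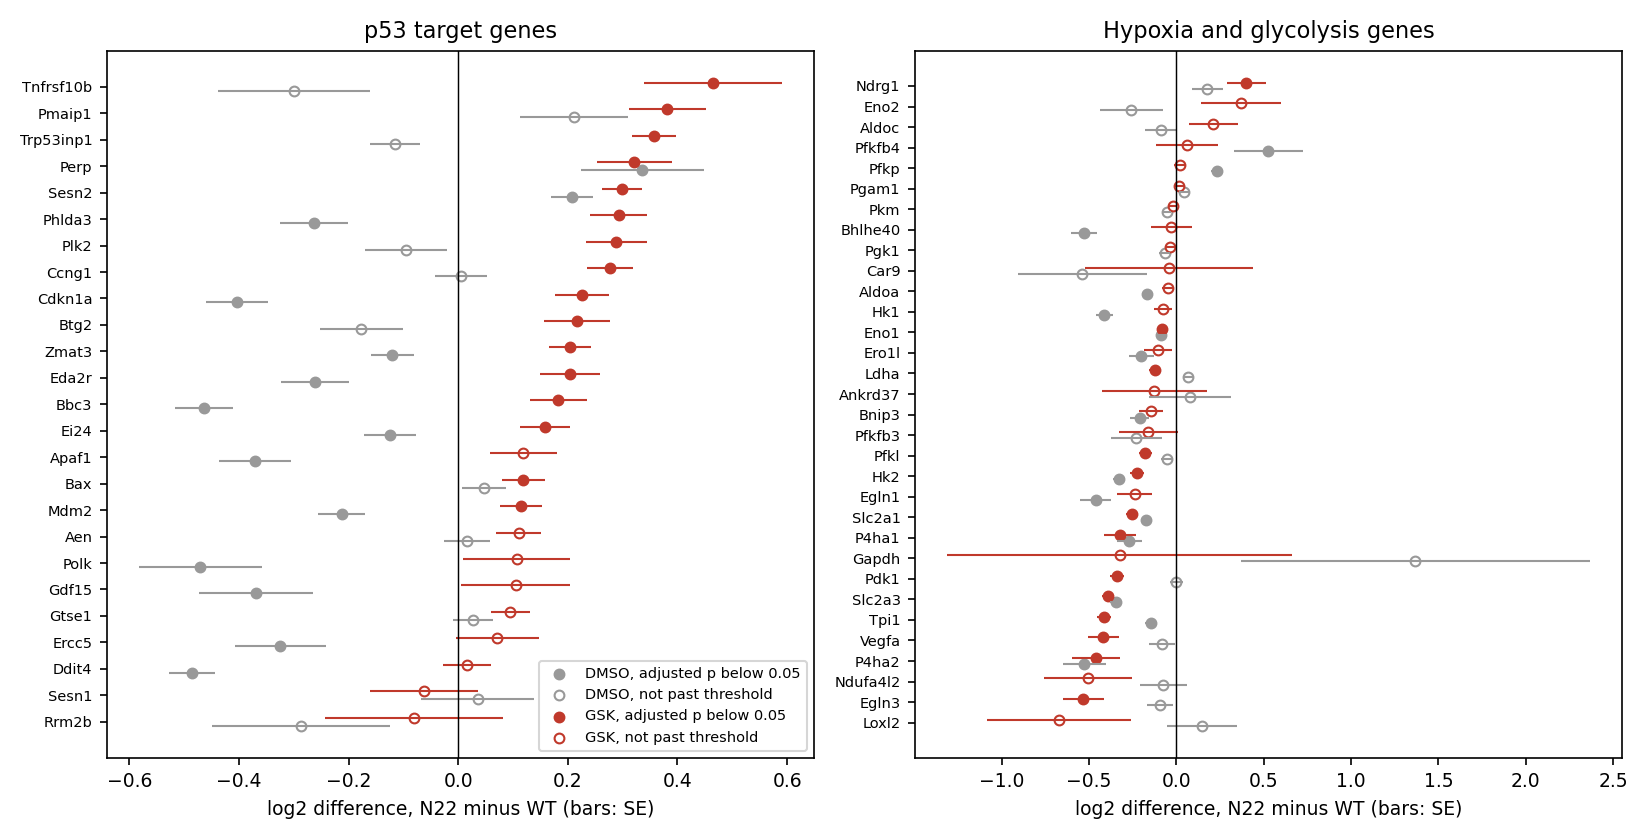
Log2 difference N22 minus WT (x, bars are SE) for tested p53 target genes and hypoxia and glycolysis genes, with GSK in red and DMSO in grey; filled points passed the test. Most p53 targets lie right of 0 with GSK, and 12 hypoxia and glycolysis genes are called lower with GSK.

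Of 32 hypoxia and glycolysis genes, 12 fell and 1 (Ndrg1) rose, against 4.6% lower over all genes, and the other 19 did not pass. Slc2a3, a glucose transporter, read 474 and 466 CPM in WT and 354 and 362 CPM in N22 (log2 difference -0.39 ± 0.03, adjusted p = 3.9e-16). The glycolytic enzyme gene Tpi1 read 176 and 179 CPM against 140 and 127 CPM (-0.41 ± 0.04). Pdk1, a pyruvate dehydrogenase kinase gene, fell by 0.34, and its clone-by-treatment difference passed (-0.34, edgeR adjusted p = 5.7e-06). Slc2a1 fell by 0.26. With DMSO the list leaned the same way, with 13 of 32 lower and 2 higher (background 13.9% lower and 11.5% higher). The clone-by-treatment difference passed for 21.9% of the list, against 11.1% of all genes. It was negative for 5 of these genes and positive for 2, and its median over the list was -0.01.

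Of 24 basement membrane and primitive endoderm genes, 7 were lower and 1 higher (background 4.6% lower), and 16 did not pass. The summed level of the list overlapped between the lines, at 2242 and 2296 CPM in WT and 2231 and 2298 CPM in N22. Col4a1 and Col4a2 encode collagen IV chains and lie side by side on chromosome 8. Col4a1 read 46.6 and 52.1 CPM in WT and 28.1 and 26.6 CPM in N22 (log2 difference -0.85 ± 0.08, adjusted p = 1e-13), and Col4a2 fell by 1.07. Both differed by similar amounts with DMSO (-0.89 and -1.30). Lrp2, an endocytic receptor, fell by 0.43 and Apoe rose by 0.34. The 6 defining primitive endoderm markers summed to 19.4 and 18.4 CPM in WT and 10.6 and 13.3 CPM in N22, and their part in these differences was not tested.

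Pluripotency genes moved in both directions, with 10 of 24 naive genes higher and 4 lower (58.3% called, against 9.65% of all genes). Klf2, a naive-state transcription factor, read 248 and 254 CPM in WT and 336 and 351 CPM in N22 (log2 difference 0.45 ± 0.04, adjusted p = 2.1e-15). Tdh rose by 0.40, Nr5a2 by 0.26 and Sox2 by 0.21. Of 21 primed and germ-layer genes, 4 rose and 4 fell (38.1% called). Zic2 (0.87) and the TGF-beta ligand Nodal (0.27) rose, while Pou3f1 fell by 0.39 and Sox1 by 0.58, the latter call being lost without N22 replicate 1 or WT replicate 2. The Nr5a2 call was lost without WT replicate 2. With DMSO 10 naive genes were higher and 8 lower (75% called, against 25.4% of all genes). Of the primed and germ-layer genes, 5 were higher and 5 lower with DMSO (47.6% called).

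Several imprinted RNAs that were near 0 in N22 with DMSO rose under the degrader, Meg3 and Rian to near the WT level. Meg3, the maternally expressed long RNA of the Dlk1-Dio3 domain, read 14.4 and 16.2 CPM in WT and 0 and 0.107 CPM in N22 with DMSO. With GSK it read 158 and 160 CPM in WT and 135 and 137 CPM in N22 (log2 difference -0.23 ± 0.05, adjusted p = 0.0029). Rian, from the same domain, read 154 and 154 CPM against 135 and 140 CPM with GSK, a call lost with DESeq2 and whenever any 1 of the 4 libraries was left out. H19 read 1.82 and 1.63 CPM in WT and 0.0557 and 0.161 CPM in N22 with DMSO, and 67.6 and 71.2 against 36.6 and 39.1 CPM with GSK. It thus stayed below WT with GSK (log2 difference -0.87 ± 0.08, edgeR adjusted p = 6.9e-13), the lowest value among 47 tested imprinted genes. The clone-by-treatment difference passed for all 3, although near-zero counts in N22 DMSO leave its size undefined.

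Across 47 tested imprinted genes, 9 were lower and 3 higher under GSK (25.5% called, against 9.65% of all genes). With DMSO 19 were lower and 6 higher (53.2% called, against 25.4% of all genes). Peg10, a retrotransposon-derived gene needed in placenta, differed more with GSK than with DMSO. It read 784 and 797 CPM in WT and 462 and 455 CPM in N22 under GSK (log2 difference -0.79 ± 0.03, adjusted p = 2.8e-30), against -0.48 with DMSO. Its chromosome 6 neighbour Ppp1r9a fell by 0.55, and Plagl1 fell by 0.36 in a call lost whenever any 1 of the 4 libraries was left out.

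Among 24 genes of DNA methylation, 4 were lower and 1 higher (20.8% called, against 9.65% of all genes). Dnmt3l, a cofactor of de novo methylation, read 548 and 535 CPM in WT and 457 and 449 CPM in N22 (log2 difference -0.26 ± 0.03, adjusted p = 2.8e-08). Gadd45a fell by 0.51, Tet2 by 0.16 and Tet1 by 0.13. The Tet2 call was lost with DESeq2 and without the N22 replicate 1, WT replicate 1 or WT replicate 2 library, and the Tet1 call without N22 replicate 1 or WT replicate 2. Among 31 genes known to act on Dux, 4 fell and 1 rose (16.1%). Ehmt2, an H3K9 methyltransferase, and Spop each fell by 0.27, and Rnf2, a Polycomb ubiquitin ligase, by 0.18, a call lost without WT replicate 1 or either N22 library.

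Germline and X-linked reproductive genes, many of which are known to be silenced by DNA methylation, were measured as well. Of 42 germline genes 3 rose and 5 fell (19.05% called, against 9.65% of all genes), among them Rpl10l (0.42), Stk31 (0.51), Stag3 (-0.55) and Tex14 (-0.45). Of 24 X-linked genes 1 passed (4.17%): Rhox5 read 61.2 and 60.1 CPM in WT and 42.9 and 41.0 CPM in N22. Its log2 difference was -0.53 with GSK and -1.82 with DMSO, and the change between treatments passed (1.29, adjusted p = 1e-11). The cytosolic RNA sensor gene Ddx58 was the 1 call among 20 interferon and RNA-sensing genes (5%), at 0.24 with GSK and 1.10 with DMSO. The GSK call was lost without N22 replicate 1 or either WT library. Of 18 trophoblast genes 3 fell (16.7%), and of 12 fibroblast genes 2 rose, Fn1 and Vim (16.7%), against 9.65% of all genes called. Of 13 mitochondrially encoded genes 1 rose (7.69%): mt-Co1, by 0.27, a call lost without N22 replicate 1.

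Of the 30 genes named for the largest changes, 12 were called with DMSO in the same direction, as were 20 of all 93 genes past 2-fold. Spic, a transcription factor gene, read 1.72 and 1.75 CPM in WT and 4.77 and 5.21 CPM in N22 (log2 difference 1.52 ± 0.28, adjusted p = 6.3e-05). Gbp9 rose by 1.42, Lrrc15 by 1.28 (a call lost without N22 replicate 1 or WT replicate 1), Akr1c13 by 1.17 and Ephx2, an epoxide hydrolase gene, by 1.01. Synpo2l read 5.64 and 5.61 CPM against 1.77 and 1.93 CPM (-1.60 ± 0.26, adjusted p = 3.8e-06). Car4 fell by 1.28, Rnf128 by 1.25 and the adhesion receptor gene Adgrl2 by 1.13.

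A few genes differed in 1 treatment or in opposite directions. Bglap3 read 9.19 and 8.84 CPM in WT and 21.2 and 20.9 CPM in N22 under GSK (1.22 ± 0.14), against 0.13 with DMSO. The Notch ligand gene Dll1 was higher under GSK (0.90) and lower with DMSO (-0.58). Tril was lower under GSK (-1.46) and higher with DMSO (2.68). Serpina3m read 29.1 and 28 CPM in WT and 55.0 and 49.6 CPM in N22 under GSK.

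Some of the firmest higher calls in N22 lay together in 2 stretches of the genome. Runs were sought as windows of 6 consecutive genes of at least 5 CPM with a median log2 difference of at least 0.4, a rule set after the values were seen, so no test is given. Of 4 runs found, 2 were lower and held 2-cell genes (Zscan4 on chromosome 7 and Eif1a-like genes on chromosome 12), and 2 were higher. The first higher run, chr5:101765130-105915818 (GRCm38), held 16 genes from Cds1 to Zfp326, 14 of them called, with a median of 0.62 (1.54-fold). The second, chr8:116568724-119558761, held 13 genes from Cdyl2 to Mbtps1, 12 of them called, with a median of 0.53 (1.44-fold). Together the genes of the 2 runs made up 12 of the 20 higher calls with the smallest p, but only 26 of all 841. Genes under 5 CPM on average were not counted, among them Gbp9, a higher call (1.42) inside the chromosome 5 stretch.

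Single genes of the runs rose by similar amounts in both N22 libraries. Aff1, a transcription elongation gene, read 92.4 and 81.5 CPM in WT and 169 and 169 CPM in N22 (0.96 ± 0.05). Spp1, the secreted protein osteopontin, read 408 and 417 CPM against 603 and 588 CPM (0.53 ± 0.03). On chromosome 8, Mbtps1, the site-1 protease gene, read 214 and 212 CPM against 323 and 327 CPM (0.61 ± 0.04), and Atmin rose by 0.60. The next genes outside read -0.06 (Wwox) and 0.09 (Hsdl1) beside the chromosome 8 run, and -0.18 (Abraxas1) and -0.03 (Zfp644) beside the chromosome 5 run. Run ends were trimmed to genes past a set difference in these same values. Small values just outside thus follow largely from the rule and do not show where a run ends. With a median of at least 0.3, the chromosome 8 run held 15 genes and reached position 119605222. All these genes were picked after their values were seen.

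**Figure D4:**
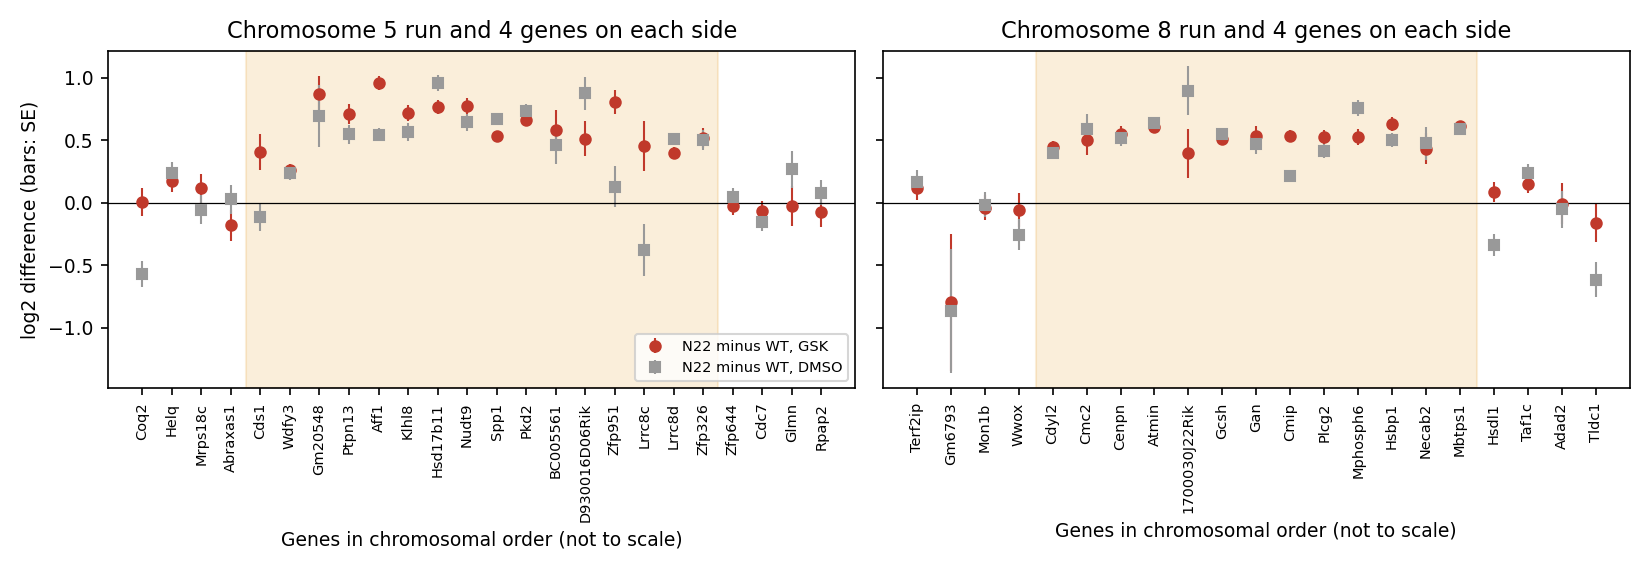
Log2 difference N22 minus WT (y, bars are SE) for genes in chromosomal order in and beside the 2 higher runs (shaded), with GSK in red and DMSO in grey. Inside the runs all values with GSK are above 0, with a median of 0.62 on chromosome 5 and 0.53 on chromosome 8.

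The runs were also present in libraries that played no part in choosing them. With DMSO the medians of N22 minus WT were 0.54 on chromosome 5 and 0.52 on chromosome 8. KO22 with GSK stood at -0.11 and -0.04 relative to WT on chromosome 5, and at -0.03 and -0.07 on chromosome 8. Among untreated libraries, set against 3 libraries of the parental E14 line, the Dux (n=1) clone 22 library stood at 0.42 and 0.62 for the 2 runs. The other 3 Dux (n=1) clones lay between -0.40 and -0.12 on chromosome 5 and between 0.10 and 0.12 on chromosome 8.

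The untreated library labelled Dux-KO clone 22 went against the treated KO22 libraries. It stood at 0.30 and 0.58 for the 2 runs, near the Dux (n=1) clone 22 library, while the libraries labelled Dux-KO clones 15 and 52 stood at -0.74 and -0.49 on chromosome 5 and 0.24 and 0.18 on chromosome 8. Treated KO22 libraries, with DMSO or GSK, lay between -0.19 and 0.02 over both runs. DNA copy number was not analysed here.

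**Figure D5:**
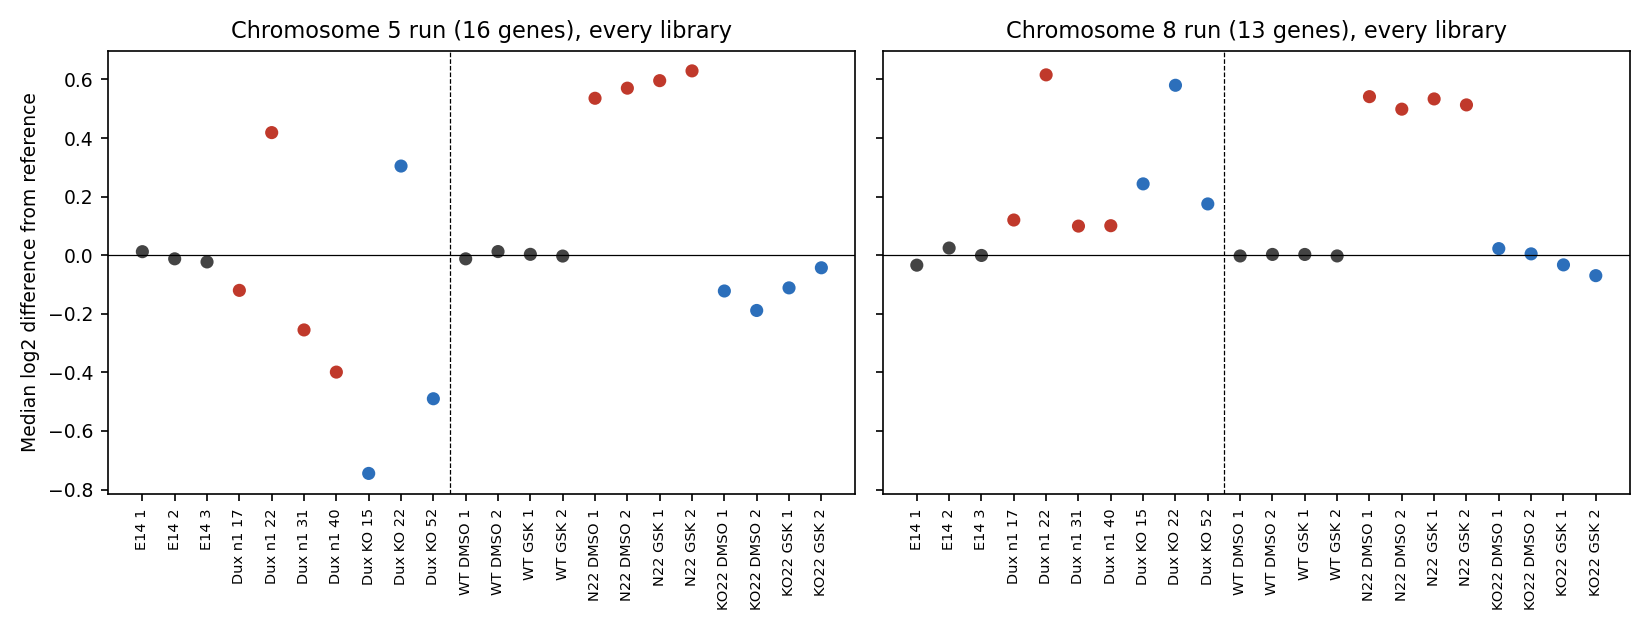
Median log2 difference over the genes of each run in every library, relative to E14 for untreated libraries (left of the dashed line) and to WT of the same treatment for treated ones; WT and E14 in grey, N22 and Dux (n=1) in red, Dux-KO in blue. The 4 N22 libraries, the Dux (n=1) 22 library and the Dux-KO 22 library lie highest in both panels.

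Chromosome 6 leaned lower in N22. Of 805 tested genes, 84 were lower and 29 higher, with a median log2 difference of -0.08 with GSK and -0.08 with DMSO, while the other autosomes had medians between -0.02 and 0.02 with GSK and between -0.06 and 0.01 with DMSO. The lean was strongest between 80 and 90 Mb, where 22 of 104 genes were lower, 0 were higher and the median was -0.20. From 100 to 150 Mb, medians per 10 Mb lay between -0.05 and 0.01 with GSK. Slc2a3, Tpi1, Peg10, Ppp1r9a and Gadd45a, described above, lie on this chromosome, and the part of position in their differences was not tested.

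Ribosomal RNA-like features were lower in N22 under GSK and uneven between libraries. CT010467.1 read 599 and 751 CPM in WT and 241 and 258 CPM in N22, and Lars2, which holds a similar repeat, 235 and 288 against 131 and 147 CPM. With DMSO, CT010467.1 read 1368 and 740 CPM in N22. Both calls under GSK were lost when any 1 library was left out.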

How the data were processed

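RNA-seq counts of 22 libraries were deposited, 12 of them from cells treated with DMSO or GSK-3484862. The authors' deposited count tables hold whole read counts per Ensembl 84 gene (GRCm38), paired-end, with neither strand nor multi-mapping set, per the file headers. The submitters' processing notes name fastp 0.23.2, HISAT2 2.1.0, featureCounts 2.0.1 and DESeq2 1.40.2. From these, edgeR 4.0.16 (quasi-likelihood test, TMM, filterByExpr with a minimum count of 10, common biological coefficient of variation 0.0435) was fitted to the 12 treated libraries with 1 mean per group. Genes with a Benjamini-Hochberg adjusted p below 0.05 were called. CPM values use TMM-scaled library sizes. DESeq2 1.42.0 was an alternative, beside RLE factors, no filter, only 4 libraries, the replicate block, a GC offset and leaving out each library. The fit was tested on simulated data, where genes of low count were often missed. Replicates of 1 group differed beyond counting noise (chi-square per degree of freedom from 2.72 to 3.37), so none was counted as a repeat deposit.

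Members and gene lists were chosen with earlier results of these data known. Named genes were fixed 2-cell genes, the 15 largest called changes in each direction without overlap and above a log2 CPM of 1 on average, up to 4 called members per list, and 8 per direction by clone-by-treatment difference. Ndrg1, Zfp365, the genes of the chromosome runs and CT010467.1 fall outside this rule and were chosen after their values were seen. GC content came from GENCODE M21 transcripts, which matched 47224 of 47729 IDs. Deviations of same-numbered replicates correlated between -0.017 and 0.029, so the numbers do not pair the libraries. One gene that the rule names is not reported here.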

Additional observations from a re-analysis of the deposited data

Results flagged for a closer look

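The difference between N22 and WT itself changed with treatment for 1844 genes by the edgeR test of the clone-by-treatment difference (N22 minus WT with GSK, minus the same with DMSO, log2). Among genes named in the report it was positive for Gm21761 (1.64), Dll1 (1.48), Rhox5 (1.29) and Bglap3 (1.09). It was positive too for Meg3 (fitted value 7.73), Rian (6.95), H19 (3.02), Serpina3m (2.87) and Plagl1 (2.76), but N22 with DMSO was near 0 in these genes, so the fitted values are neither sizes nor bounds. It was also positive for Phlda3 (0.56), Trp53inp1 (0.47), Aff1 (0.41), Apoe (0.40), Fn1 (0.31), Ccng1 (0.27), Sox2 (0.25), Fbxo15 (0.21), Tdh (0.20), Klf2 (0.18) and Tet1 (0.16). It was negative for Tril (-4.15), CT010467.1 (-2.50), Nlrc4 (-1.95), Lars2 (-1.51), Ddx58 (-0.85), Gadd45a (-0.70), Pou3f1 (-0.57), Lrp2 (-0.53) and Ppp1r9a (-0.41). Smaller negative values were found for Tet2 (-0.36), Pdk1 (-0.34), Peg10 (-0.31), Rnf2 (-0.29), Tpi1 (-0.27), Spop (-0.23), Ehmt2 (-0.23), Dnmt3l (-0.22), Rpl10l (-0.20) and Spp1 (-0.14).

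Untreated libraries outside the comparison held the chromosome 5 and 8 runs above the level of E14. The Dux (n=1) clone 22 library stood at 0.42 and 0.62, while Dux-KO clone 22 by its label stood at 0.30 and 0.58. On chromosome 8 the Dux (n=1) clone 22 library lay far from the other 3 clones, with a gap of 0.96 of the whole range. The threshold for such a gap is passed by chance in about 1 of 20 groups, and the run was chosen for being high in N22.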

How the results depend on the processing

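N22 against WT under GSK gave 1606 calls, 916 with DESeq2 and 884 to 972 without 1 library. With DMSO the range without 1 library was 2811 to 3048 of 4221. The clone-by-treatment difference gave 1177 calls with DESeq2 and 1264 to 1495 without 1 library, against 1844. The 2-cell list gave 28 calls (24 lower), 12 with DESeq2, 12 to 20 without 1 library and 9 without the multi-copy families, of which 5 were lower. Those 5 included Gm21761 and Gm20767, listed outside the families but near Tcstv3 on chromosome 13. The ratio of summed 2-cell CPM was 0.898, and 0.993 without the multi-copy families. Without 1 library it ranged from 0.883 to 0.913. The median log2 difference of chromosome 6 ranged from -0.081 to -0.059 without 1 library. Scaling moved the balance of calls: with DMSO 45.2% of calls were higher in N22, 50.4% with RLE factors and 53.3% with DESeq2, and for the clone-by-treatment difference 52.5%, 46.8% and 44.9%. RLE factors and the GC offset, the latter chosen after the data were seen, changed no call among 86 named genes. Over all alternatives 22 of the 86 changed their side of the threshold and none reversed; the cause was not tested.

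With a replicate block, which the data do not call for, N22 against WT under GSK gave 1631 calls, the DMSO comparison 4255, the clone-by-treatment difference 1899 and the 2-cell list 29. Genes of few counts, Duxf3 among them, are where depth limits the comparison most.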
